A study of Arabidopsis thaliana with 18 samples.

Results

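The chloroplast of Arabidopsis keeps a small circular genome of its own, and this account describes its transcripts in rosettes of plants with altered SnRK1 signalling. A gene was taken when its identifier starts with ATCG and 3 or more of the 18 libraries held a deposited value of 10 or higher. This gave 113 of the 133 chloroplast-encoded genes in a table of 32833 genes. The 20 genes left out were 13 transfer RNA genes, 4 ribosomal RNA genes, psbF and 2 copies of ycf15. Just outside the threshold were trnE and 1 copy of rrn4.5S, each with 1 library at 10 or more. Just inside it were trnY with 4 such libraries and 1 copy each of trnI and trnA with 5. All 4 such libraries of trnY were sesquiα2 libraries, with 11.7 in ED replicate 2 and 16.2, 10.8 and 14.7 at EN. It thus became a member through the group in which it is high, and its sesquiα2 estimates below cannot count as a result. The copies of trnI (ATCG00930) and trnA (ATCG01190) just inside the threshold would also have missed it without their sesquiα2 libraries. Their sesquiα2 estimates cannot count as a result either.

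The study compared 3 genotypes at 2 times of the day in whole rosettes of 20-d-old plants, with 3 libraries in each of 6 groups, each library from a pool of rosettes. Col-0 is the wild type, and SnRK1α1-OE carries SnRK1α1 under the 35S promoter in Col-0. The third genotype, sesquiα2, combines the insertion GABI_579E09 (-/-) in SnRK1α1 with WiscDsLox384F5 (+/-) in SnRK1α2, and is thus snrk1α1-/- snrk1α2+/-. ED is the end of the day (ZT 12 h) and EN the end of the night (ZT 24 h), so that all ED plants had been in light and all EN plants in darkness before harvest. Each altered genotype is 1 line, and the libraries of a group measure the spread between pools of plants. The sesquiα2 seedlings were selected on plates with BASTA and then moved to soil, while Col-0 and SnRK1α1-OE were sown on soil, so genotype and early growth cannot be told apart for sesquiα2.

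The plastid genome codes for core subunits of the photosystems, the cytochrome b6f complex, the ATP synthase, the NDH complex and Rubisco, and for part of the plastid's own ribosome and RNA polymerase. Its genes are read by a bacterial type RNA polymerase, whose core is encoded by rpoA, rpoB, rpoC1 and rpoC2 and which needs sigma factors from the nucleus, and by phage-type polymerases that are encoded in the nucleus altogether. Many genes are transcribed together as long clusters and cut into smaller RNAs later. Plastid messenger RNAs have in the main no stable poly(A) tail, and short tails are known to mark plastid RNA for decay. The libraries were made from RNA bound to poly-T oligos, so the values count the plastid RNA that came through this selection and not the whole plastid RNA. What part tails or internal runs of A had in that selection was not tested.

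The deposited values are normalized read counts with the same total in every library. In these units 1 read was worth 0.934 to 1.09, from which the depth was estimated at 34.9 to 40.6 M reads. SnRK1α1 had values of 28713 to 32681 in the 6 SnRK1α1-OE libraries and 1685 to 1991 in the 6 Col-0 libraries. In the libraries labelled sesquiα2 it was at 1672 to 1950, within reach of Col-0, so this value per gene does not check that label. SnRK1α2 had 905 to 1069 in sesquiα2 at ED against 1405 to 1506 in Col-0, with no overlap, and 1161 to 1275 against 1203 to 1484 at EN, with an overlap. In SnRK1α1-OE it was at 1017 to 1318 at ED, also below Col-0. The leaf markers were high, with RBCS1A at 597329 to 894164, CAB1 at 420456 to 813084, RCA at 182935 to 662900 and LHCB1.1 at 29505 to 303533. The root markers CASP1 and COBL9 reached at most 14.7 and 3.98, and the flower markers AG and AP1 at most 27.1 and 2.04. The meristem gene STM lay at 20.1 to 262, and WUS did not exceed 1.95.

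By value per kb, very short genes and a few ribosomal protein genes led the chloroplast transcripts in these libraries, and psbA and rbcL did not. Per kb of gene length, the mean over the 18 libraries was 420517 for psbM, a small photosystem II subunit, and 150886 for rpl32, a protein of the large ribosomal subunit. atpE, a subunit of the ATP synthase, followed at 69239.6 per kb, rpl16 at 67595 and trnL (ATCG00400) at 58887. psbA, which encodes the D1 protein of photosystem II, stood at 903 per kb, and rbcL, the large subunit of Rubisco, at 715 per kb. The lowest members were the 2 copies of ycf2, the longest plastid open reading frame, at 3.11 per kb each. psbM (105 bases), rpl32 (159) and trnL (86) are near or below the length of a read. A read that only touches such a gene weighs more per kb. Some genes of like length stood far lower, such as psbT (102 bases) at 954 per kb and petG (114) at 253 per kb. What part the measure had in the lead of psbM, rpl32 and trnL was not tested.

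**Figure D1:**
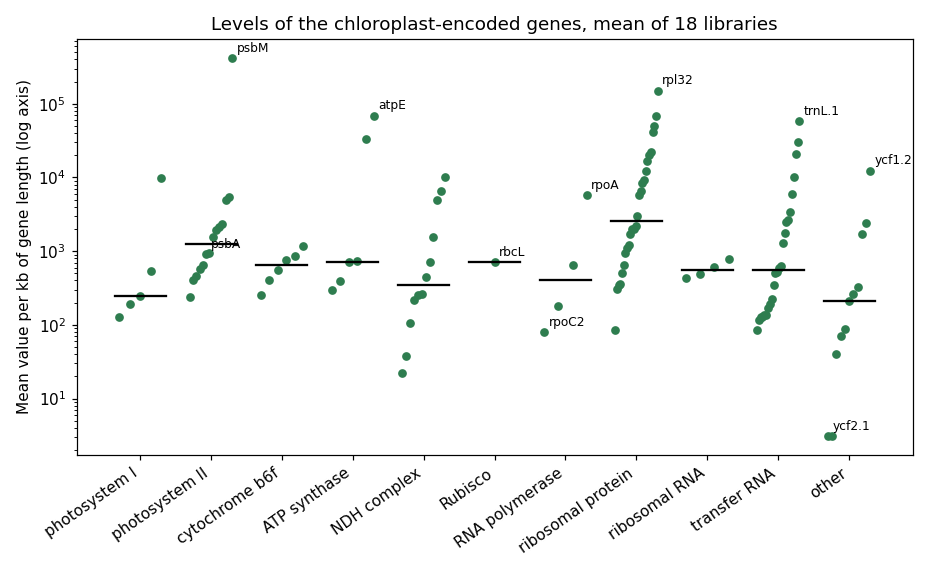
Mean value per kb of gene length over the 18 libraries (log axis) for each of the 113 chloroplast-encoded genes, in columns by role, with 1 point per gene and a line at the median of the role. psbM (420517) and rpl32 (150886) stand above all others, while psbA (903) and rbcL (715) lie among the middle of the genes.

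Without division by length, 8 genes held 73.3% of the summed chloroplast value. These were the long copy of ycf1 (ATCG01130), which encodes a large envelope protein, with 17.1%, atpB with 12.7%, psbM with 11.4%, atpE and rpl16 with 7.11% and 7.10%, rps3 with 6.90%, rpl32 with 6.18% and rpl14 with 4.73%. By role, the 26 ribosomal protein genes took 35.7% of the sum, the 6 ATP synthase genes 20.2% and the 14 photosystem II genes 14.3%. The 24 transfer RNA genes took 2.89%, the 4 copies of rrn16S and rrn23S together 1.36%, and rbcL 0.265%. The median per kb was highest for ribosomal proteins (2588) and photosystem II (1251) and lowest among the complexes for photosystem I (247) and the NDH complex (350.2).

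Because poly-T oligos can bind any stretch of A, the longest run of A was looked up on the transcribed strand of each gene and in the 200 bases on either side. Each gene was taken with its introns. This search and its limit of 10 bases were chosen after the levels were seen. The sequences come from the RefSeq chloroplast genome of TAIR10.1 (154478 bases, written chrC here, 63.7% A and T), in which 80 members had a single entry under their name. The following windows of 30 bases, 5′ to 3′, hold the longest run of A, in capitals, for 4 members with a run of 10 or more and for psbA, rbcL and atpA, which are described further on.
psbM (chrC:28665-28694, minus strand, after the gene): tttactatcAAAAAAAAAAAAAgatttcaa
rpl32 (chrC:113278-113307, plus strand, before the gene): ttcaaacgttAAAAAAAAAAgttgggtttg
rpl16 (chrC:82445-82474, minus strand, inside the gene): gtagcaactgAAAAAAAAAAAgaataaaga
rpoA (chrC:78087-78116, minus strand, inside the gene): aacctaagAAAAAAAAAAAAAAcaaaagaa
psbA (chrC:1594-1623, minus strand, before the gene): ttcatcgattacAAAAAAttttttatgaat
rbcL (chrC:56530-56559, plus strand, after the gene): aatttagatagAAAAAAAActcttcaataa
atpA (chrC:9922-9951, minus strand, across the end of the gene): aggagaaagtatAAAAAAcgaaacggatta

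The run was 13 bases long at psbM, with 21 bases between it and the end of the gene (chrC:28707-28811), and 10 bases long at rpl32, where it began 161 bases before the gene (chrC:113449-113607). It was 14 bases long in rpoA and 11 in rpl16, and only 6 at psbA and at atpA and 8 at rbcL. The span of rpl16 on the genome is 1464 bases against a deposited length of 408, so its run may lie in an intron. The same holds for the long runs of clpP1 (1973 and 591 bases), petD (1192 and 483) and trnK (2631 and 71). Of the 80 members, 21 had a run of at least 10 bases, with a median level of 2445 per kb, against 715 per kb for the 59 others. Across the 80 genes the rank correlation of run length and level per kb was weak (Spearman's rho 0.11). Genes with a long run were found at high and low levels, such as psbM and accD (40.0 per kb), both with a run of 13. Shorter runs were also found at high levels, such as 9 bases at atpE (69240 per kb), 8 at rpl14 (49748 per kb) and 7 at rps3 (40801 per kb). These genes share the libraries and a base composition rich in A and T, and the comparison is a description without a test.

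Several genes cannot be read one by one. The genome carries an inverted repeat, and the files do not say how reads that fit both copies were treated. rpl2 had a mean of 1642 in one copy and 4791 in the other, ndhB 44.5 and 26.4, rps7 437 and 522, rrn16S 648 and 742, and rrn23S 1725 and 2185, so the split between copies is uncertain. The annotated spans of atpB and atpE overlap by 4 bases, those of psbC and psbD by 53 and those of rps3 and rpl22 by 16, and matK lies within trnK. Whether strands were kept apart is not stated in the sources used here. rrn4.5S and rrn5S, the small ribosomal RNAs, had means of 0.659 to 4.69 and fell below the threshold in all copies. Transfer RNA genes varied most, with a median spread within groups of 28.2% (coefficient of variation, n = 3 per group) against 17.9% for all 113 members.

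Chloroplast-encoded genes made up about 1% of each library, somewhat more at EN than at ED, with an overlap. Their share of the library total was 1.01, 0.812 and 0.846% in the 3 Col-0 libraries at ED (replicates 1 to 3) and 1.27, 1.06 and 0.937% at EN. For SnRK1α1-OE the shares were 0.789, 0.995 and 1.11% at ED and 1.099, 1.04 and 0.968% at EN. The sesquiα2 libraries held 0.934, 1.196 and 0.948% at ED and 1.095, 1.098 and 1.22% at EN. The median was 0.948% over the 9 ED libraries and 1.095% over the 9 EN libraries, and the ranges of ED (0.789 to 1.196%) and EN (0.937 to 1.27%) overlapped. Group means at ED and EN were 0.889% ± 0.106 and 1.09% ± 0.167 for Col-0, 0.966% ± 0.165 and 1.04% ± 0.0652 for SnRK1α1-OE, and 1.03% ± 0.147 and 1.14% ± 0.0728 for sesquiα2 (SD, n = 3). In whole rosettes, fewer chloroplasts or green cells and less plastid RNA per cell cannot be told apart.

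**Figure D2:**
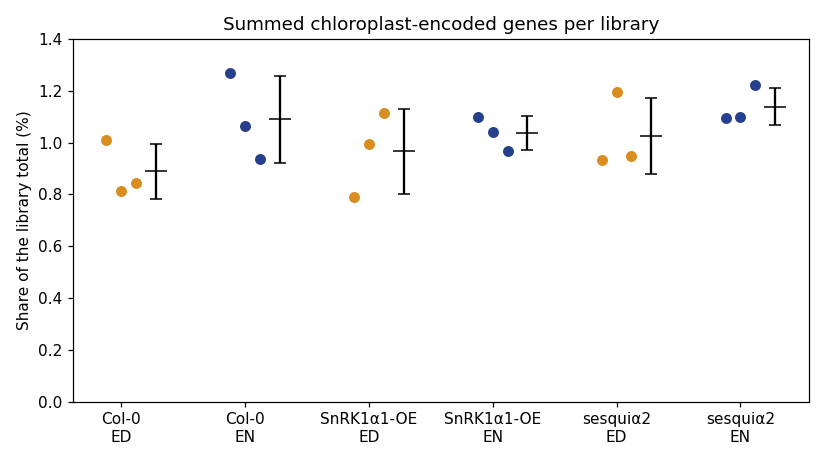
Share of the library total held by the 113 chloroplast-encoded genes (percent) in each of the 18 libraries, by genotype and time, with ED in orange and EN in blue. Points are libraries and the bar beside them is the mean ± SD (n = 3). ED libraries span 0.789 to 1.196% and EN libraries 0.937 to 1.27%.

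The mitochondrial genome, the other organelle genome in the same RNA, did not show the same order. Its 38 genes that met the same threshold, of 152 in the table, held 0.0110 to 0.0146% of the total at ED and 0.00986 to 0.0144% at EN. The 14 nuclear genes for subunits of the same plastid complexes, such as RBCS1A and PSBO1, held 3.99 to 5.68% at ED and 4.503 to 5.57% at EN, also with an overlap.

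Libraries of a group differed among themselves in a shared way. Col-0 ED replicate 1 had the highest of the 3 values for 60 members, Col-0 EN replicate 1 for 63, SnRK1α1-OE ED replicate 3 for 57, SnRK1α1-OE EN replicate 1 for 70, sesquiα2 ED replicate 2 for 61 and sesquiα2 EN replicate 3 for 72. In each group this was also the library with the highest chloroplast share. The genes did not all follow 1 pattern. After removal of group means, rpl32 went most closely with trnT (ATCG00390, Pearson's r 0.96), ndhF (0.95), trnP (0.93) and psbI (0.93), and psbD, the D2 protein of photosystem II, with rps3 (0.91), psaB (0.88) and atpI (0.87). These correlations run over 18 libraries that share depth and scaling, and are given as a description. By contrast, the closest companion of atpA was 1 copy of rpl2, at 0.53.

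The comparison of EN with ED asks which plastid transcripts differ between the end of the light period and the end of darkness. Over the 3 genotypes, 47 of the 113 genes were higher at EN and 1 was lower (limma on 18 libraries with a term for genotype, adjusted p under 0.05 over 20338 genes). That is 41.6% of the members called higher, where 27.3% of all genes tested were, and 0.885% called lower, where 36.4% of all genes were. In either direction 42.5% of the members and 63.7% of all genes were called. The median log2 fold change was 0.26 over the members and −0.06 over all genes, and 100 of the 113 members lay above 0. None of the called members reached a log2 fold change of 1, which 18.0% of all genes did with an adjusted p under 0.05. The times did not overlap in 11 members (9.73%), all higher at EN, and in 26.2% of all genes.

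The ATP synthase subunit α gene atpA had the largest difference. Its values were 250.5, 329 and 274 in Col-0 at ED and 555, 718 and 604 at EN. For SnRK1α1-OE they were 277, 282 and 343 at ED and 501, 560.1 and 617 at EN. The sesquiα2 libraries gave 352, 319 and 326 at ED and 632, 619.6 and 652 at EN. Every EN library thus lay above every ED library. The log2 fold change was 0.99 (SE 0.0773, adjusted p = 1.34e-09), and the fits of single genotypes gave 1.14 (Col-0), 0.90 (SnRK1α1-OE) and 0.93 (sesquiα2).

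Its neighbours in the same cluster gave lower estimates. In the order of transcription, the genes for the membrane part of the enzyme gave log2 fold changes of 0.10 for atpI (SE 0.23, adjusted p = 0.711), 0.45 for atpH (adjusted p = 0.00054) and 0.67 for atpF (adjusted p = 9.88e-07), followed by atpA. rps2, a ribosomal protein gene at the start of the cluster, was at 0.42 without passing the test (adjusted p = 0.198). The grouping of genes into clusters was written after the values had been seen. The other 2 ATP synthase genes form a cluster of their own and were not called, with 0.17 for atpB and 0.11 for atpE.

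All 4 genes for the plastid-encoded RNA polymerase were higher at EN, where 27.3% of all genes tested were called higher. rpoB had 1206 to 2109 at ED (median 1657) and 2108 to 3135 at EN (median 2389), which gave 0.56 as log2 fold change (SE 0.0808, adjusted p = 5.63e-06). The lowest EN library, Col-0 replicate 1, lay just under the highest ED library, sesquiα2 replicate 2. rpoC1 rose from 146 to 358 at ED to 368 to 538 at EN (log2 fold change 0.86, adjusted p = 0.000174), rpoC2 from 174 to 325 to 348 to 475 (0.74, adjusted p = 1.60e-05) and rpoA from 3513 to 5004 to 6139 to 7961 (0.65, adjusted p = 7.65e-07). In these 3 genes the times did not overlap, as in 26.2% of all genes. In each genotype alone 3 or 4 of the 4 genes passed the test, with rpoC1 in Col-0 (0.64, adjusted p above 0.05) as the exception.

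Of the 26 ribosomal protein genes, 15 were called, all higher, with a median log2 fold change of 0.41. Among all genes tested, 27.3% were called higher. In the cluster from rpl23 to rpoA, the cluster with the most genes, all 11 genes were called, with log2 fold changes of 0.36 for rpl16 and 0.56 for rps19 among them. rpl36 had 1120 to 1766 at ED (median 1689) and 2070 to 2669 at EN (median 2314), with no overlap (log2 fold change 0.64, SE 0.0923, adjusted p = 5.45e-06). rpl14 and rpl22 also had no overlap between times. The clusters of rpoB to rpoC2 (3 genes), clpP1 to rpl20 (3) and psbK to psbI (2) were likewise called in full. Outside this cluster, rpl20 rose by 0.68, the first exon of rps12 (ATCG00065) by 0.56 and rps4 by 0.29. rpl32, rpl33, rps2, rps14, rps15, rps16, rps18, both copies of rps7 and both of the other rps12 entries did not pass the test.

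**Figure D3:**
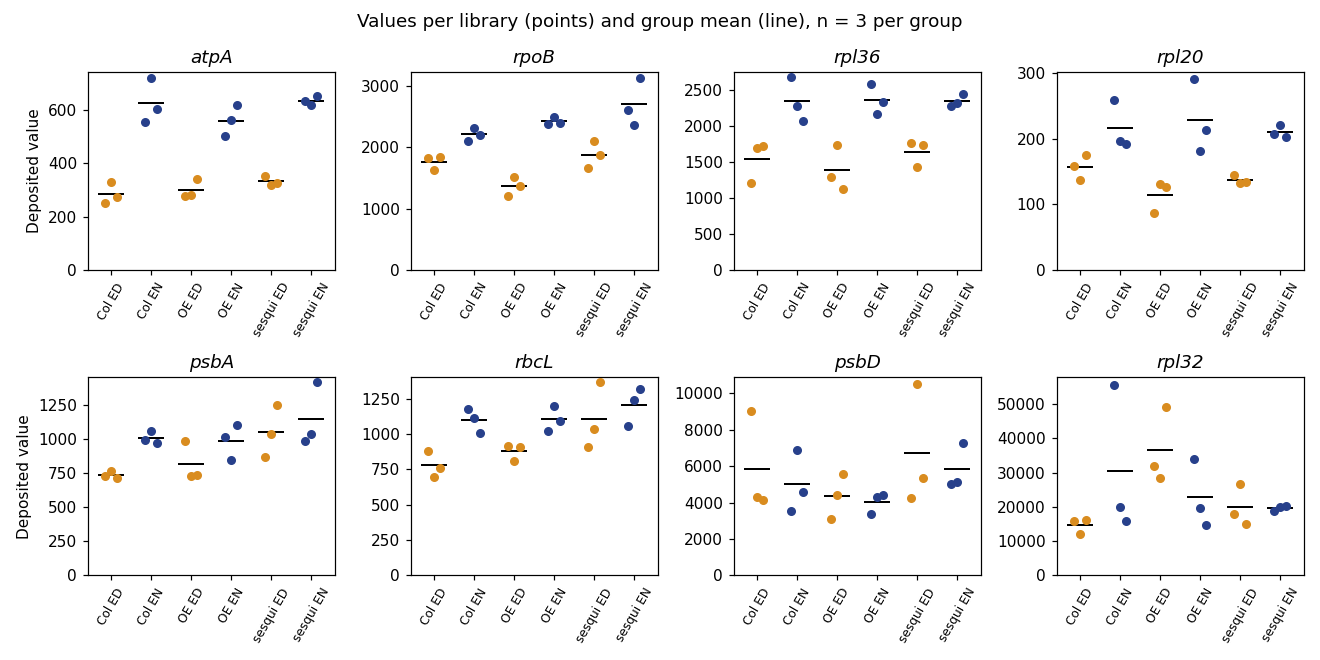
Deposited values of 8 chloroplast-encoded genes in each of the 18 libraries (points, ED orange and EN blue) with the group mean (line, n = 3), for Col-0 (Col), SnRK1α1-OE (OE) and sesquiα2 (sesqui). atpA, rpl36 and rpl20 separate EN from ED in all genotypes, while ED and EN overlap in every genotype for rpl32 and psbD.

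In photosystem II, 4 of 14 genes were called, namely psbA, psbB, psbI and psbK, all higher, and the median of the 14 was 0.09. That count lies near the share of all genes tested that were called higher (27.3%). psbA had 714 to 1247 at ED (median 766) and 845 to 1421 at EN (median 1014), which gave 0.29 as log2 fold change (SE 0.0929, adjusted p = 0.0117). The ranges overlapped, and only in Col-0 did psbA pass the test within a genotype (0.46, adjusted p = 0.00747). rbcL had 699 to 1371 at ED (median 907) and 1009 to 1319 at EN (median 1115), which gave 0.32 (adjusted p = 0.00229). In photosystem I psaA (0.35) and psaC (0.53) were called of 5 genes, and in the cytochrome b6f complex petA (0.26), petB (0.43) and petD (0.35) of 6.

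Some of the best known light-regulated genes showed no difference that passed the test. psbD had 3105 to 10524 at ED (median 4410) and 3377 to 7259 at EN (median 4562), its log2 fold change being −0.13 (SE 0.191, adjusted p = 0.583). The highest ED libraries were Col-0 replicate 1 at 9053 and sesquiα2 replicate 2 at 10524. psbC, whose gene overlaps psbD and encodes the CP43 antenna protein, was at 0.09 and psbZ at 0.06. psbM, the most abundant per kb, was at −0.01, with 29100 to 68196 at ED and 35885 to 70874 at EN.

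The NDH complex, which feeds electrons back from ferredoxin into the chain, had 8 of 12 genes called, all higher (27.3% of all genes tested), with a median log2 fold change of 0.39. They split by cluster. In the cluster from rps15 through ndhH to ndhD all 7 genes after rps15 were called, which are 6 ndh genes and psaC, among them ndhI (0.66), ndhE (0.68), ndhA (0.44) and ndhH (0.26). In the cluster of ndhC, ndhK and ndhJ none was called, and the log2 fold changes were 0.02, 0.02 and 0.06. Mean levels in the rps15 cluster were lower gene by gene along it, from 6452 per kb for rps15 and 1574 for ndhH to 106 for ndhD. Within Col-0, SnRK1α1-OE and sesquiα2 alone, 1, 1 and 2 of the 12 ndh genes were called (16.1, 21.2 and 22.1% of all genes called higher). Of the 8 called over 18 libraries, only ndhI stayed called with scaling to the chloroplast sum, as described below.

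**Figure D4:**
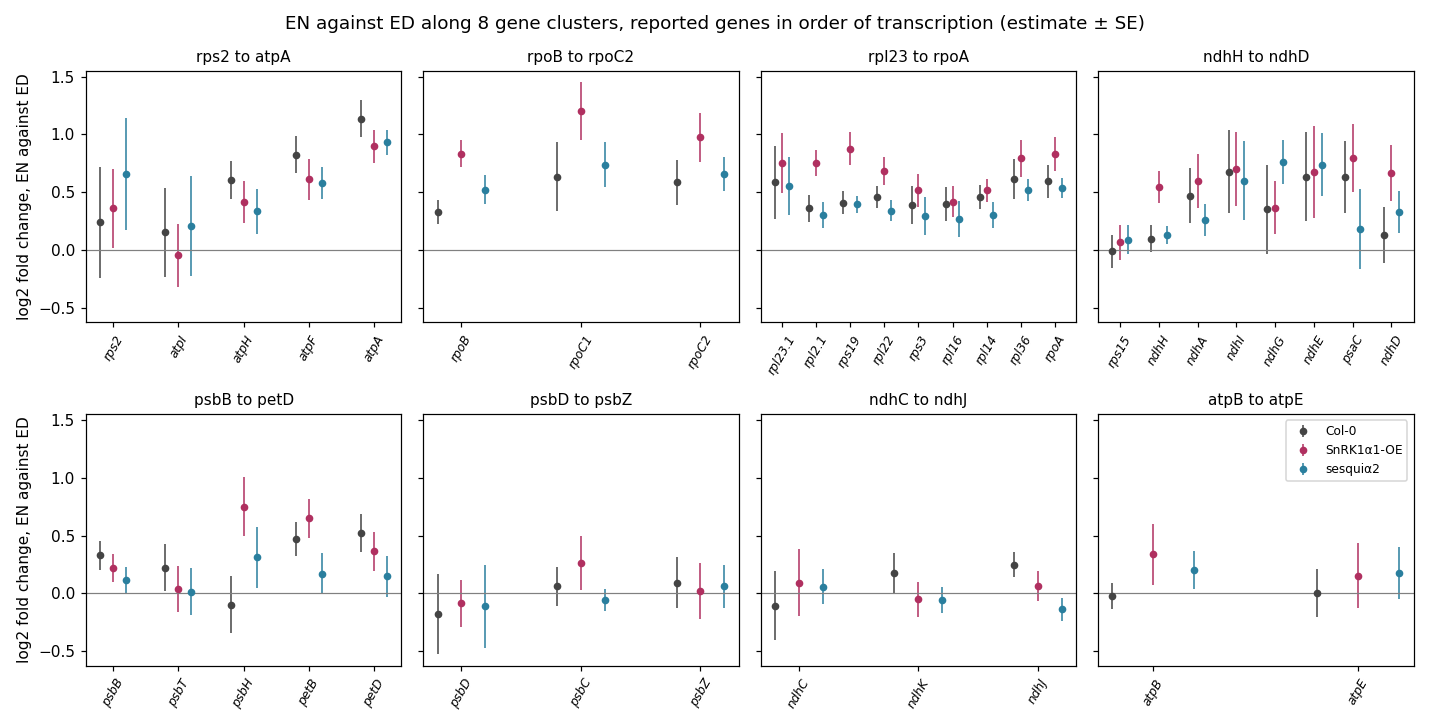
Log2 fold change of EN against ED (estimate ± SE) for the reported genes of 8 transcription clusters in the order in which they are transcribed, in Col-0 (grey), SnRK1α1-OE (red) and sesquiα2 (blue), 6 libraries per genotype. Values climb from atpI to atpA and lie above 0 for every gene shown from rpl23 to rpoA, and lie around 0 for psbD to psbZ and ndhC to ndhJ.

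Of the remaining genes, clpP1, the proteolytic subunit of the plastid Clp protease, rose by 0.36, and ycf4, an assembly factor of photosystem I, by 0.59. accD, a subunit of acetyl-CoA carboxylase, was at 0.26 (adjusted p = 0.232) at only 40.0 per kb, and the 2 ycf2 copies at 0.37 and 0.31 did not pass either. cemA, ccsA, matK, ycf3 and both ycf1 genes were not called. Both copies of rrn16S were called (0.30 and 0.32) and neither copy of rrn23S (0.14 and 0.13). These counts stand beside 27.3% of all genes tested called higher and 36.4% called lower. Among 24 transfer RNA genes, only trnG (ATCG00310), trnR (ATCG00110) and trnS (ATCG00370) were called higher, a share below that of all genes. trnA (ATCG00940) was the 1 member called lower. Its values were 8.56 to 21.9 at ED and 2.02 to 12.9 at EN (log2 fold change −0.87, SE 0.301, adjusted p = 0.0164), which is a few reads in each library of a gene with a near-identical second copy.

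When the genes were put into classes by the polymerase that mainly reads them, 4 of 7 genes of the nuclear-encoded polymerase (rpoB, rpoC1, rpoC2 and clpP1, but not accD or ycf2) and 10 of 23 genes of the plastid-encoded polymerase were called higher. Their median log2 fold changes were 0.37 and 0.22, beside −0.06 for all genes tested, of which 27.3% were called higher. Within genotypes, 16.1% of all genes were called higher for Col-0, 21.2% for SnRK1α1-OE and 22.1% for sesquiα2. The first class had 3, 3 and 4 of 7 called in this order, and the second had 7, 3 and 0 of 23. Whether the classes differ in this between genotypes was not tested. The 47 called members had a median level of 639 per kb and the 66 others 944 per kb.

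Within each genotype the EN to ED calls among the members were all in 1 direction. Col-0 had 24 of 108 tested members called (background 45.0% of all genes in either direction and 16.1% higher), SnRK1α1-OE 25 of 108 (45.5% and 21.2%) and sesquiα2 20 of 113 (49.0% and 22.1%), and all of these were higher at EN. Median log2 fold changes of the members were 0.41, 0.24 and 0.21 in this order, beside −0.16, −0.03 and −0.03 over all genes. Of 107 members tested in all genotypes, 12 were called in each of them, all higher (11.2%, background 11.8% of 19242 genes called higher in each and 28.7% in either direction). Among them were atpA and atpF, rpoA, rpoB and rpoC2, and the ribosomal protein genes rps19, rpl14, rpl22, rpl36 and 1 copy of rpl2. Another 7 were called in 2 genotypes (6.54%, background 17.6%), 19 in 1 (17.8%, background 19.4%) and 69 in none (64.5%, background 34.3%). Above 0 in all genotypes were 62 members (57.9%, background 30.7%), and 1 lay below 0 in all (0.935%, background 40.4%). The EN libraries lay above all ED libraries for 41 of 108 members in Col-0 (background 21.1% of all genes), 32 of 108 in SnRK1α1-OE (26.8%) and 29 of 113 in sesquiα2 (26.1%).

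The largest called difference was that of atpA in Col-0 (1.14, SE 0.158, adjusted p = 0.000985), rpoC1 in SnRK1α1-OE (1.204, SE 0.248, adjusted p = 0.00365) and 1 copy of ndhB in sesquiα2 (1.26, SE 0.435, adjusted p = 0.0370), the last at values of only 7.19 to 38.4. The other copy of ndhB was at −0.28 in sesquiα2, in the opposite direction. The split of reads between the copies is uncertain. The next largest differences in Col-0 were trnG (1.11) and trnP (1.01), neither past the test. In SnRK1α1-OE they were rpl20 (0.98) and rpoC2 (0.98), both called, and in sesquiα2 trnY (1.26, not called) and atpA (0.93, called). trnY met the threshold only through sesquiα2 libraries. The lowest values were psbD (−0.18), rps14 (−0.11) and ndhC (−0.11) in Col-0, rpl32 (−0.73), trnA (−0.73) and trnC (−0.72) in SnRK1α1-OE, and trnT (−0.65), trnA (−0.56) and trnD (−0.46) in sesquiα2, none of them called. The count in Col-0 fell to 13, 12 and 10 without ED replicate 2, ED replicate 3 or EN replicate 2. It fell to 16 in SnRK1α1-OE without EN replicate 2 and rose to 34 in sesquiα2 without ED replicate 2, of which 33 were higher. Calls lower at EN also appeared in SnRK1α1-OE, where 25 of 31 were higher without EN replicate 1, 22 of 24 without ED replicate 2 and 18 of 19 without ED replicate 1.

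The scaling sets how many members are called. When each library was scaled to the sum of its chloroplast-encoded genes, an alternative chosen after seeing the data, 22 of the 48 calls over 18 libraries remained. They hold atpA, atpF, the 4 rpo genes, rpl20, rps12, ndhI, psbK, trnG (ATCG00310), 1 copy of trnA, and 10 ribosomal protein genes of the rpl23 to rpoA cluster, the copy of rpl23 outside it among them. psbA, rbcL, psaA, petA, petB, petD and every called ndh gene except ndhI were no longer called. Over the 18 libraries 60.8% of all genes were called under this scaling, in either direction. Within genotypes the member counts were then 4 in Col-0 (46.5% of all genes), 16 in SnRK1α1-OE (34.6%), of which 13 were higher, and 7 in sesquiα2 (46.8%). Members were thus called less often than all genes. Of the 22 genes 21 were higher at EN in relation to the plastid sum, and trnA was lower.

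Among the nuclear genes for plastid transcription, sigma factor genes went both ways, with 4 of 6 higher and 2 lower at EN. Of all genes tested, 27.3% were called higher and 36.4% lower. SIG5, a light- and stress-responsive sigma factor known for the psbD promoter, had 149 to 305 at ED (median 205) and 3526 to 4871 at EN (median 4607), 20.0-fold higher (log2 fold change 4.32, SE 0.118, adjusted p = 1.82e-16). SIG1 was 4.65-fold higher (log2 fold change 2.22, SE 0.107), SIG3 and SIG6 rose by 0.24 and 0.17 on the log2 scale, SIG2 fell by 0.26 and SIG4 fell by 1.54. All 3 genes for phage-type polymerases were lower at EN, RPOTp by a log2 fold change of −1.08, RPOTmp by −1.98 and RPOTm, the mitochondrial enzyme, by −1.18. Of 12 genes for proteins associated with the plastid-encoded polymerase 11 were lower, from −0.35 to −1.19, with PAP12 (−0.31) not called.

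**Figure D5:**
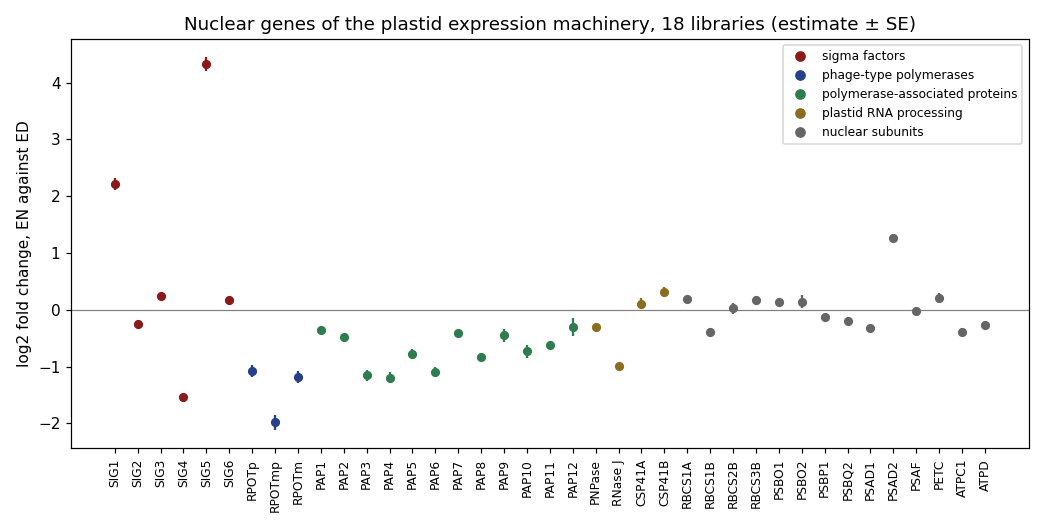
Log2 fold change of EN against ED (estimate ± SE, 18 libraries) for the nuclear genes of the plastid transcription and RNA processing machinery and for nuclear subunits of the same complexes, coloured by list. SIG5 (4.32) and SIG1 (2.22) stand above 0, and the phage-type polymerases and the polymerase-associated proteins lie below it.

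Among genes of plastid RNA processing, RNase J (−0.996) and PNPase (−0.29) were lower at EN, CSP41B (0.32) was higher and CSP41A did not pass. Of the 14 nuclear genes for subunits of the same complexes, 2 were higher and 5 lower, with a median log2 fold change near 0. Among all genes tested, 63.7% were called in either direction. PSAD2, one of a pair of genes for a photosystem I subunit, rose by 1.26, and its twin PSAD1 fell by 0.32. ATPC1 and ATPD, the nuclear partners of atpA in the ATP synthase, fell by 0.39 and 0.26.

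Neither SnRK1 line differed from Col-0 in a chloroplast-encoded gene at an adjusted p under 0.05. In SnRK1α1-OE at ED 0 of 109 members were called by limma (background 0.276% of all genes) and 18 had an unadjusted p under 0.05 (16.5% of the members and 24.9% of all genes). At EN it was 0 of 108 (background 0.0670%) and 1 at an unadjusted p (0.926% against 3.94%). In sesquiα2 it was 0 of 108 at ED (background 0.419%) with 10 unadjusted (9.26% against 14.2%), and 0 of 110 at EN (background 2.95%) with 9 unadjusted (8.18% against 18.8%). The median log2 fold changes over the members were 0.06, −0.03, 0.22 and 0.05 in this order, beside −0.12, 0.03, 0.00 and 0.10 over all genes.

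The nearest to a difference was rpl32 in SnRK1α1-OE at ED. It had 15848, 12138 and 16196 in Col-0 at ED and 31879.9, 28528 and 49067 in SnRK1α1-OE, with no overlap (log2 fold change 1.28, SE 0.211, adjusted p = 0.0574). At EN Col-0 had 55734, 19987 and 15923 and SnRK1α1-OE 33859.9, 19655 and 14708, which overlap (log2 fold change −0.29, SE 0.481, adjusted p = 0.99997). The sesquiα2 libraries had 17884, 26599 and 14962 at ED and 18714, 19988 and 20169 at EN. psbM (0.72, adjusted p = 0.0780), ndhF, the neighbour of rpl32 on the genome (0.74, adjusted p = 0.0699), and psaJ (0.71, adjusted p = 0.0857) were likewise without overlap at ED and below the threshold. Of the 109 members, 21 had no overlap in this comparison (19.3%), and 31.4% of all genes.

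These values depended on single libraries. Without Col-0 ED replicate 1, 6 members were called, namely rpl32 (1.34, adjusted p = 0.0235), ndhF, psbM, cemA, trnL (ATCG00400) and trnT (ATCG00390), while all genes called went from 54 to 2137. Without any other of these libraries the count over all genes was 4 to 81. Without SnRK1α1-OE ED replicate 2 psaJ was called, and without any other library none. The fit of all 18 libraries called psbM (adjusted p = 0.0424) and psaJ (adjusted p = 0.0220) and not rpl32. Without Col-0 EN replicate 1, in which rpl32 and psbM (70874) were the highest of all libraries, atpE was called in sesquiα2 at EN (0.43, adjusted p = 0.0309).

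The other members with the largest differences in these comparisons were transfer RNA genes and genes of several complexes, and none was called. Of the transfer RNA genes named here, trnP had a mean of 748 and the others of 7.09 to 37.9 over the 18 libraries. In SnRK1α1-OE at ED they were trnT (ATCG00260, 0.93) and trnP (0.85) at the upper end and rps14 (−0.51), rpl20 (−0.46) and psbH (−0.46) at the lower. At EN they were trnF (0.77), psbH (0.39) and rpoC1 (0.32) against trnT (−0.56), trnW (−0.48) and ccsA (−0.46). In sesquiα2 they were trnT (1.097), trnP (0.62) and ycf2 (0.61) against ndhB (ATCG01250, −0.49), rpl20 (−0.19) and rps12 (−0.17) at ED. For sesquiα2 at EN they were trnY (1.099), rps2 (0.56) and trnF (0.53) against ndhB (ATCG00890, −0.75), trnG (ATCG00310, −0.58) and trnT (−0.54). The 2 ndhB entries are the 2 copies, each among the lowest at 1 time only. trnY met the threshold only through sesquiα2 libraries. psbA in sesquiα2 at ED had 867, 1036 and 1247 against 726, 766 and 714 in Col-0, all above, and the log2 fold change was 0.50 (SE 0.138, adjusted p = 0.192). In that comparison 19 of 108 members had no overlap (17.6%), and 20.4% of all genes.

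An interaction term compared the effect of a line at EN with that at ED. For SnRK1α1-OE 0 of 110 members passed (limma, background 0.210%), with 16 at an unadjusted p under 0.05 (14.5% against 20.5% of all genes). For sesquiα2 it was 0 of 113 (background 0.815%), with 5 unadjusted (4.42% against 17.2%). The largest estimates for SnRK1α1-OE were rpl32 (−1.57, SE 0.591, adjusted p = 0.181), trnT (−1.48) and trnW (−1.16) on one side and psbH (0.85), trnF (0.77) and trnA (0.61) on the other. For sesquiα2 they were trnT (−1.64), trnP (−0.91) and trnI (−0.87), and trnY (1.405) and the 2 copies of trnA (0.78 and 0.77). Of these, trnY met the threshold only through sesquiα2 libraries. The trnA copy at 0.77 (ATCG01190) would have missed the threshold without its sesquiα2 libraries, so neither estimate can count as a result. The lowest adjusted p for SnRK1α1-OE was that of rpoB (0.50, SE 0.142, adjusted p = 0.112). All comparisons with Col-0 at 1 time share the same 3 Col-0 libraries.

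Of the nuclear partner lists, 1 gene was called between genotypes. At ED, SIG1 stood at 4279, 3505 and 3690 in the sesquiα2 libraries against 2025, 1704 and 2109 for Col-0, with no overlap (log2 fold change 0.98, SE 0.119, adjusted p = 0.0225). Its difference between times was smaller in sesquiα2 than in Col-0 (interaction −0.83, SE 0.156, adjusted p = 0.0380). RBCS2B, a small subunit of Rubisco, went in opposite directions. It had 109166, 112163 and 106257 in Col-0 at ED and 141404, 147710 and 173345 at EN, all above. In sesquiα2 it had 141030, 137724 and 133239 at ED and 121222, 124412 and 101862 at EN, all below (interaction −0.74, SE 0.146, adjusted p = 0.0447). The calls of SIG1 and RBCS2B were not followed under the alternatives. With single libraries left out, the counts over all genes ran from 1 to 1112 for sesquiα2 at ED and from 7 to 1564 for its interaction.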

How the data were processed

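RNA of 18 rosette pools was selected with poly-T oligos, primed at random and sequenced as paired ends. Per the labels, the authors used HISAT2, SAMtools, featureCounts and edgeR with the TAIR10 genome. The treatment of strands and of reads with several positions is not given in the sources used here. The signal values that the authors deposited are edgeR pseudo-counts multiplied by TMM factors, which brings every library to the same total. Raw counts were not analysed here. Some genes are counted among the members but not reported here by name.

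Members were found by identifier and value. Values were put on the log2 scale with a pseudocount of 1, which understates the change of low genes, and analysed in limma 3.58.1 under R 4.3.3 (linear model, moderated with an intensity trend and robust variances). A gene entered a fit when 3 of its libraries reached 10 and the values summed to 15 or more. Benjamini-Hochberg adjustment ran across every gene in the fit, with calls at 0.05. Each comparison used the libraries of its groups, and the comparison of EN with ED over 18 libraries had genotype as a term. Genes were named by role and as the 3 highest and 3 lowest log2 fold changes of each comparison. Members, lists and clusters were chosen with earlier results of these data known. The fit was tested on simulated data. Values per kb use the deposited gene length. Alternatives were other pseudocounts, no filter, other scalings, variances without robust moderation, a block for replicate number, a fit of all libraries and leaving out each library.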

Additional observations from a re-analysis of the deposited data

How the results depend on the processing

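Counts of called chloroplast-encoded genes were within 1.5 times of those reported under other pseudocounts, no filter, scaling to the nuclear total and eBayes without the robust setting. EN against ED in Col-0 gave 24 and moved to 39 with median-ratio scaling, 41 with quantile normalization and 4 with scaling to the chloroplast total. The last gave 16 in SnRK1α1-OE, 7 in sesquiα2 and 22 over all libraries. SnRK1α1-OE against Col-0 at ED moved from 0 to 1 with median-ratio scaling and with quantile normalization (rpl32 in both) and to 2 with the fit of all 18 libraries. Over all genes these scalings moved the median from −0.12 to −0.02 (log2) in that comparison and from −0.16 to 0.00 and −0.01 in EN against ED in Col-0. Leaving out each library in turn gave 10 to 25 calls for EN against ED in Col-0, 16 to 31 in SnRK1α1-OE, 15 to 34 in sesquiα2 and 43 to 52 over all, 0 to 6 for SnRK1α1-OE at ED, 0 to 1 for sesquiα2 at EN, and 0 in the other comparisons. Of the 48 genes called over all libraries, 22 were called under every alternative, 19 were lost only with scaling to the chloroplast total, and 7 (ndhF, ndhD, ndhB, rps4, trnS and both copies of rrn16S) also elsewhere.

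With the replicate number as a block, 1 member (rpl32, adjusted p = 0.0473) was called for SnRK1α1-OE at ED, 32 for EN against ED in Col-0, 23 in SnRK1α1-OE, 15 in sesquiα2 and 48 over all, and 0 in the other comparisons. Same-numbered libraries did not deviate together in every pair (correlations from −0.47 to 0.60). The correlations were 0.60, 0.007 and 0.37 for SnRK1α1-OE against Col-0 at EN, and 0.37, 0.32 and 0.055 for EN against ED in Col-0. No pairing by number was evident over all comparisons, and so few libraries cannot exclude it.

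The counts over all genes in the genotype comparisons moved more. At ED in SnRK1α1-OE they went from 54 to 1864 with the fit of all libraries, 196 with median-ratio scaling, 184 with quantile normalization, 28 without the robust setting and 19 with the block, and leaving out each library gave between 4, in the absence of SnRK1α1-OE ED replicate 1, and 2137, in that of Col-0 ED replicate 1. In SnRK1α1-OE at EN the block gave 197 in place of 13, and leaving out each library 5 to 13. In sesquiα2 at ED the count went from 82 to 647 with the fit of all libraries, 20 with the block, 1112 without Col-0 ED replicate 1, 34 without Col-0 ED replicate 2, 3 without Col-0 ED replicate 3, and 1, 41 and 12 without sesquiα2 ED replicates 1 to 3. At EN it went from 577 to 2718 without Col-0 EN replicate 1 and to 109 (without sesquiα2 EN replicate 3) to 276 without each other library. For the interaction of SnRK1α1-OE it went from 42 to 4 with no filter and with the nuclear total, 5 without the robust setting, 21 with median-ratio scaling and with quantile normalization, 15 with the block, 1132 without Col-0 ED replicate 1 and 0 to 68 without each other library. For that of sesquiα2 it went from 164 to 72 with no filter, 64 with the block, 1564 without Col-0 ED replicate 1 and 7 to 252 without each other library.

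Signs that changed belonged to genes that were not called. When each library was left out in turn, the log2 fold change of rps14 ran from −0.97 to 0.22 in SnRK1α1-OE at ED and that of rps12 from −0.36 to 0.083 in sesquiα2 at ED. In EN against ED, psbD ran from −0.44 to 0.19, rps14 from −0.58 to 0.49 and ndhC from −0.32 to 0.25 in Col-0, trnD from −0.85 to 0.15 in sesquiα2 and trnI from −0.29 to 0.022 over all libraries. In EN against ED in Col-0, rps14 became 0.049 with median-ratio scaling and 0.00041 with quantile normalization, and ndhC became 0.058 with median-ratio scaling. The cause was not tested.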
